A study of Homo sapiens with 8 samples.

Results

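The mRNAs of the RAB GTPases, the largest family of small GTPases that direct membrane traffic, were examined in RNA pulled down with an antibody to RPS6, which is ribosomal protein S6, part of the small subunit of the ribosome. Members were the genes whose listed symbol is RAB followed by a number and at most 1 of the letters A to D, which gave 61 of the 57756 listed genes. This rule uses names only, leaves out RAB-like genes and pseudogenes whose symbols do not match, and misses members that the tables list under another symbol. It does not check that a member such as RAB1C codes for a protein. RNA immunoprecipitation (RIP) with RPS6 and sequencing were done in 4 human cancer cell lines, and each line gave 1 RIP library and 1 input library, the RNA of the same lysate before the pulldown. The lines are Hep3B (hepatocellular carcinoma), HCT116 (colorectal cancer), DU145 (prostate cancer), and SW1990 (pancreatic cancer), and the labels name no drug or genetic change in any of them. The titles of the liver cancer pair point to Hep3B, as the paper does, while its cell line field names Huh7, and the pair is called Hep3B here. The 8 libraries form 4 pairs without a replicate inside a line, so tests use the 4 lines as replicates. A pulldown with a control antibody was not analysed here, and a ratio of RIP to input shows enrichment relative to the other RNAs of the same libraries.

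RAB proteins cycle between a GDP-bound form in the cytosol and a GTP-bound form on a membrane. Exchange factors, many with a DENN domain, load GTP, GTPase-activating proteins, most with a TBC domain, trigger its hydrolysis, and effectors such as tethers and motor adaptors bind the GTP form. Each RAB works at its own membranes, for example RAB1 between the ER and the Golgi, RAB5 on early endosomes, RAB11 on recycling endosomes, and RAB27 on vesicles that fuse with the plasma membrane. Close copies from gene duplication, such as RAB4A and RAB4B, encode proteins of similar sequence.

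Levels are given as FPKM (fragments per 1000000 mapped and per kilobase of transcript length), and the ratio in a line as log2 of (RIP FPKM + 1)/(input FPKM + 1), which understates the change of weakly expressed genes. Inputs held between 35796472 and 54209547 fragments and RIP libraries between 34630385 and 42610952, so that the floor of 3 fragments lay between 0.0553 and 0.0866 fragments per 1000000. Of 6 liver markers, 6 were above 70 FPKM in the Hep3B input, with ALB at 5030 FPKM and AFP at 291 FPKM. The labelled tissue was less clear in the others: of the colon markers only CDX2 was above 1 FPKM in the HCT116 input (6.25), the prostate marker KLK3 was at 0 in the DU145 input, and CDX2 stood at 86.6 FPKM in SW1990. Of 6 pancreatic duct markers in the SW1990 input, KRT19 (229), SOX9 (60.6), and PDX1 (12.7) stood above 10 FPKM and KRT7 (3.17), MUC1 (1.16), and CFTR (0.284) did not. KRT19 was higher in the HCT116 input (570), and KRT7 (254) and MUC1 (76.6) were higher in that of DU145.

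To show genes whose mRNAs parted between close copies, the start regions of 2 pairs are printed from RefSeq promoter windows (GRCh38.p14), as the 20 bases before the annotated start in lower case and the first 10 transcribed bases in capitals. RAB4A lies on the plus strand at chr1:229271091-229271120, RAB4B on the plus strand at chr19:40778227-40778256, RAB8A on the plus strand at chr19:16111869-16111898, and RAB8B on the plus strand at chr15:63189586-63189615.
RAB4A: ggcctcgcgtagcccatctcCTCTTCCTCC
RAB4B: cgccggaggggggcggaggcGGAAGTGGCG
RAB8A: tggccgcacttcccgtcgggGAGAGAGTGT
RAB8B: cctcctctggctccccggtcAGAGGGCCGG
A start with C followed by 4 bases that are each C or T, the hallmark of terminal oligopyrimidine mRNAs such as those of ribosomal proteins, was searched on the transcribed strand at the first start listed for each gene. RAB4A, RAB13, and RAB3D had it, 3 of the 47 members with a window (6.38%), against 1104 of 27305 symbols in the whole table (4.04%). RAB4A and RAB13 were lower in RIP in 4 of 4 lines, while RAB3D did not pass the test.

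Most RAB mRNAs that differed were lower in the RPS6 RIP than in the input. Of the 56 members whose counts averaged at least 10, 22 were lower (39.3%) and 7 were higher (12.5%) by edgeR's quasi-likelihood test with the cell line as a block and a Benjamini-Hochberg adjusted p under 0.05. Over all 19921 genes tested, 24.9% were lower and 26.5% were higher. The lower members included RAB5A, RAB4A, and RAB13, with input levels above 30 FPKM in every line, and the higher members RAB43, RAB34, and RAB17. The median log2 fold change was -0.38 for the members and -0.05 for all genes tested, and 0.13 for the 13561 tested genes with a protein-coding symbol. RAB33A, RAB39A, RAB3C, RAB41, and RAB44 were not tested, since none of them had over 33 fragments or over 0.533 FPKM in any library.

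The direction was shared by most lines. Of the 22 lower members, 17 had a lower FPKM ratio in 4 of 4 lines, and all 7 higher members had a higher one. The remaining 5 were RAB31, listed at 0 in both SW1990 libraries, and RAB6A, RAB11A, RAB14, and RAB21, which had a higher FPKM in the RIP of at least 1 line. Counted as a share of the fragments of a library, 21 of the 22 lower members fell in 4 of 4 lines (all but RAB31) and 6 of the 7 higher members rose (all but RAB34). The median share over all genes fell too, so a fall alone says little about a member. Its log2 change was -0.23 for Hep3B, -0.44 for HCT116, and -0.28 for DU145 and SW1990. For the members the median was -0.39, -1.07, -1.33, and -0.6 in that order. FPKM and shares of fragments can part through transcript length and through the scaling of each library. The effective length implied by the 2 columns changed in RIP by a median of -0.33 to -0.16 on the log2 scale for the members and -0.24 to -0.11 for all genes. For HCT116 the median over all genes was -0.44 by share and 0.01 by FPKM ratio, with -0.13 for length. The part of each was not tested. With limma on log2(FPKM + 1), 17 of 52 members were lower and 8 higher, at a median of -0.11 against 0.13 for all genes, and of all 16900 genes in that fit 20.1% were lower and 28.6% higher. The lower calls lost there were those of RAB6A, RAB11A, RAB14, RAB21, and RAB30.

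**Figure D1:**
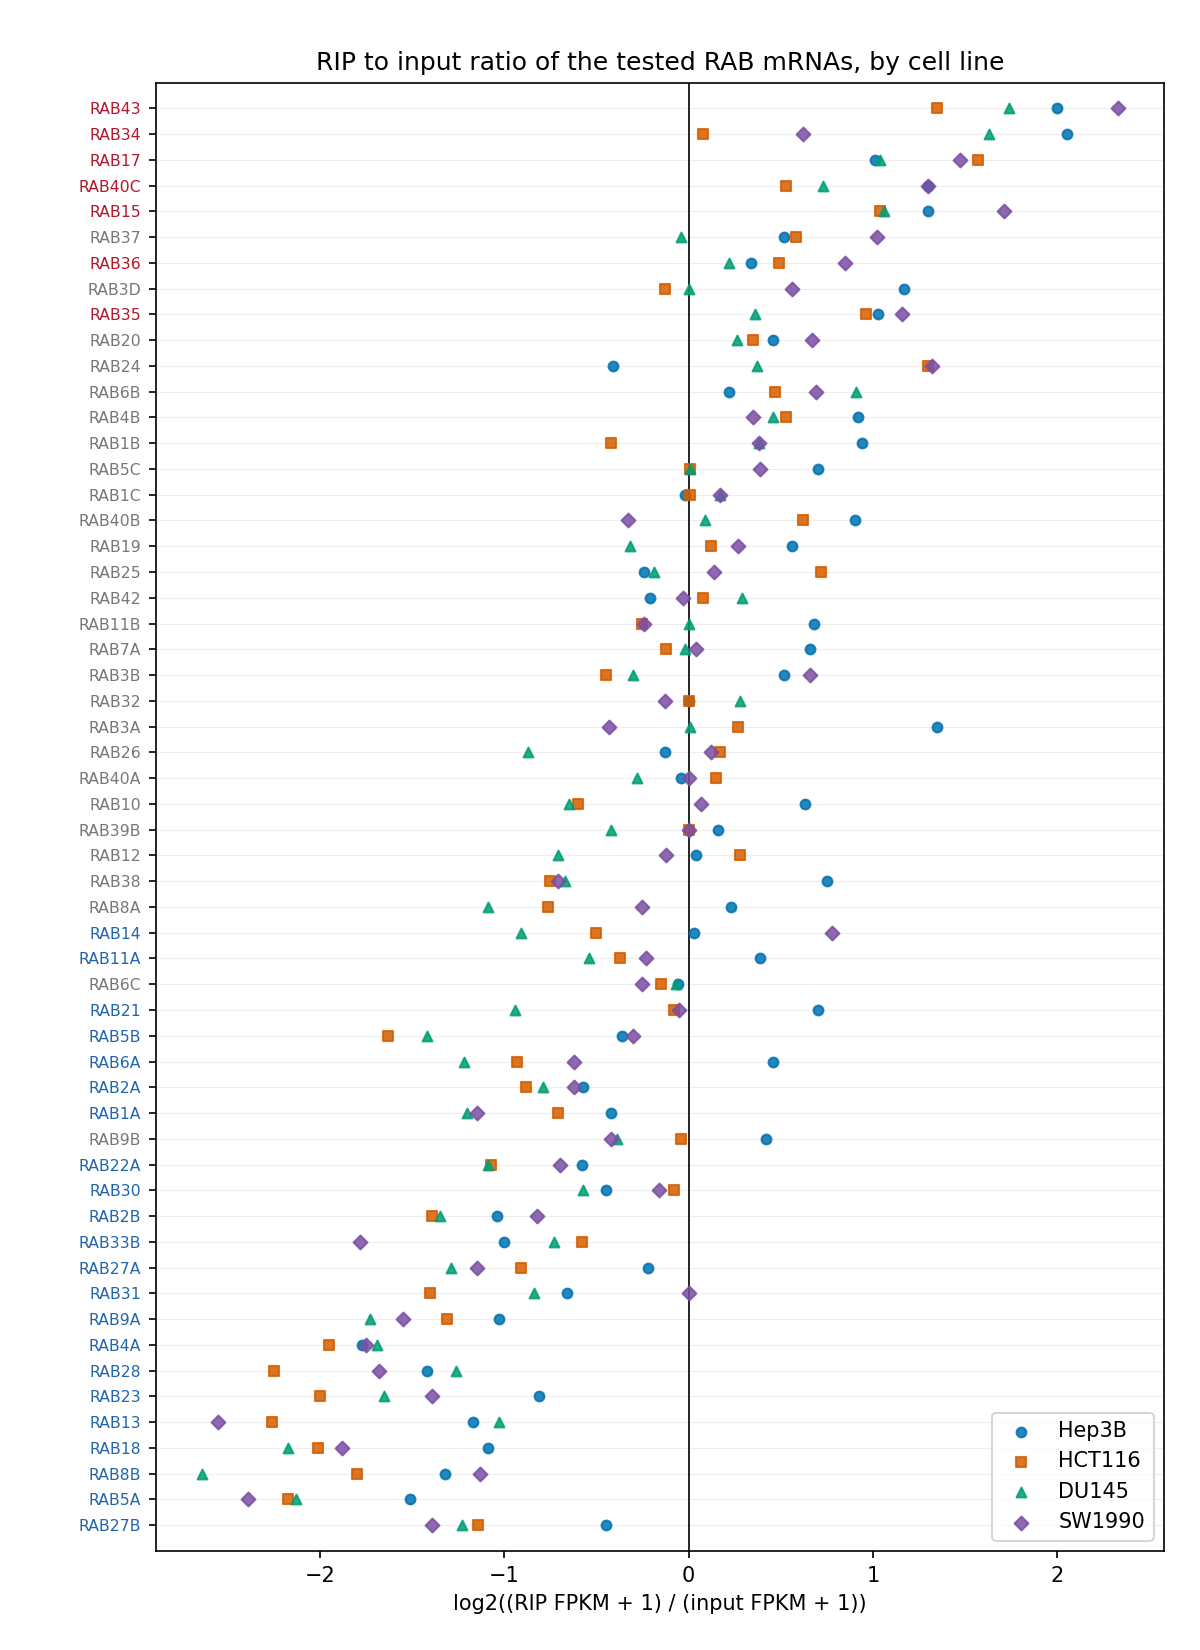
Ratio of RIP to input in each cell line for the 56 tested RAB mRNAs, on the horizontal axis as log2 of (RIP FPKM + 1)/(input FPKM + 1), with genes ordered by edgeR's fold change and 1 marker for each line. Gene names in blue were lower and in red higher by edgeR, grey names did not pass, and for the lowest genes such as RAB5A and RAB18 the 4 markers all lie below -1.

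By cell line, the members' fragments took 0.302% of the Hep3B input and 0.308% of its RIP, 0.341% and 0.164% for HCT116, 0.380% and 0.214% for DU145, and 0.281% and 0.188% for SW1990. The share fell in 3 lines and not in Hep3B, where RAB34 rose from 143 to 504 fragments per 1000000, and RAB1B and RAB43 rose as well. Without RAB34, left out after its value was seen, the share was lower in all 4 RIP libraries. In Hep3B it then went from 0.288% to 0.258%, in a pair where the median share over all genes also fell (log2 change -0.23). That step does not show a lowering particular to RABs in Hep3B. Of the 56 tested members, 26 had a ratio below 0 for Hep3B, 32 for HCT116, 38 for DU145, and 30 for SW1990. The median ratio of the members was 0.10, -0.13, -0.40, and -0.09 in that order. Over all genes tested it was 0.08, 0.01, 0.04, and 0, and over protein-coding symbols 0.20, 0.09, 0.10, and 0.10. A median near 0 means that many other genes had a ratio below 0 as well.

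At least 2-fold lower were 8 members for Hep3B (14.3%, against 10.6% of all genes tested), 13 for HCT116 (23.2%, against 13.4%), 16 for DU145 (28.6%, against 13.6%), and 12 for SW1990 (21.4%, against 16.0%). At least 2-fold higher were 8 members for Hep3B (14.3%, against 19.1%), 4 for HCT116 (7.14%, against 18.7%), 4 for DU145 (7.14%, against 18.2%), and 7 for SW1990 (12.5%, against 19.8%). With 1 library of each kind in a line, these counts have no test. Across the 56 members the ratios of any 2 lines had a Spearman's rho between 0.68 and 0.85, the lower values being those with Hep3B. Genes are not independent replicates, and these values describe the libraries only.

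RAB43, a Golgi RAB, was the highest member. Its FPKM went from 9.48 in the input to 40.9 in the RIP of Hep3B, from 5.68 to 16.1 in HCT116, from 5.05 to 19.2 in DU145, and from 3.88 to 23.5 in SW1990. Every RIP library was above every input library. The log2 fold change was 1.99 ± 0.22 (SE, n = 4 pairs, edgeR adjusted p = 4.14e-05). The tables place the gene in a span on chromosome 3 from 128806411 to 128880136 (hg19) that it shares with ISY1 and the readthrough gene ISY1-RAB43, between which fragments can be split.

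RAB34, which acts in lysosome positioning and in the formation of primary cilia, depended on the line for its level and its change. It rose from 143 to 592 FPKM in Hep3B and from 111 to 347 FPKM in DU145, and had few fragments elsewhere, at 0.384 and 0.466 FPKM in HCT116 (23 and 11 fragments) and 0.210 and 0.860 FPKM in SW1990 (7 and 15 fragments). The log2 fold change was 1.39 ± 0.34 (SE, edgeR adjusted p = 0.00628). Without the Hep3B pair it was 0.96 and no longer passed (edgeR adjusted p = 0.0651), so the call rests on the Hep3B pair.

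RAB17, an epithelial RAB of apical recycling endosomes, had 31.5, 11, 5.30, and 20.7 FPKM in the inputs of Hep3B, HCT116, DU145, and SW1990 and 64.4, 34.7, 12.0, and 59.2 FPKM in the RIP libraries. It was at least 2-fold higher in RIP in each line, although the groups overlapped because the lines differed (log2 fold change 1.15 ± 0.20, edgeR adjusted p = 0.000674). RAB15, also of the recycling route, went in the same order from 7.88, 2.63, 16.5, and 11.5 FPKM to 20.8, 6.47, 35.5, and 39.8 FPKM. It rose in every line (1.06 ± 0.18, edgeR adjusted p = 0.000635), and its span holds FNTB and the readthrough gene CHURC1-FNTB as well. RAB40C, which carries a SOCS box and takes part in ubiquitin ligases, went from 6.35, 6.91, 9.80, and 14 FPKM to 17.2, 10.4, 16.9, and 35.7 FPKM (1.13 ± 0.21, edgeR adjusted p = 0.00127).

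The other 2 higher members were RAB35, a RAB of fast endocytic recycling, at a log2 fold change of 0.67 (edgeR adjusted p = 0.00899), and RAB36 at 0.90 (edgeR adjusted p = 0.0297). RAB36 had under 60 fragments in each library of Hep3B and DU145, and it lost the call without any 1 of the 4 pairs.

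RAB5A, which drives the fusion of early endosomes, was among the lowest members. Its FPKM in Hep3B, HCT116, DU145, and SW1990 was 75.3, 30.9, 30.3, and 55.6 in the inputs and 25.7, 6.08, 6.14, and 9.82 in the RIP libraries. All 4 RIP libraries lay below all 4 inputs, with a log2 fold change of -2.51 ± 0.20 (SE, edgeR adjusted p = 1.31e-05). RAB18, found on lipid droplets and the ER, had 35.5, 62.4, 66.6, and 77.3 FPKM in the inputs and 16.1, 14.7, 14, and 20.2 FPKM in the RIP libraries of the same lines. Those groups did not overlap either (-2.19 ± 0.20, edgeR adjusted p = 1.65e-05).

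RAB8B, a RAB of post-Golgi transport to the plasma membrane, had 52.4, 13.5, 26.0, and 11.4 FPKM in the inputs against 20.4, 3.17, 3.34, and 4.66 FPKM in the RIP libraries (-2.48 ± 0.24, edgeR adjusted p = 2.21e-05). RAB13, which acts at tight junctions and in the delivery of proteins to the cell surface, had 44.0, 55, 98.1, and 74.7 FPKM against 19, 10.7, 47.7, and 11.9 FPKM. DU145 kept the highest RIP level of RAB13, above the Hep3B input, and within each line RIP was the lower of the pair (-2.13 ± 0.31, edgeR adjusted p = 0.000228). RAB27B, which acts in the docking of secretory vesicles and exosomes, was weakly expressed. Its FPKM went from 0.369 (28 fragments) to 0 for Hep3B, from 1.96 to 0.342 for HCT116, from 4.75 to 1.45 for DU145, and from 4.08 to 0.943 for SW1990. Its log2 fold change, the lowest of all members, was -2.64 ± 0.44 (SE, edgeR adjusted p = 0.000575).

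Ordered by where the proteins work, the ER and Golgi RABs had the lowest median, -1.17. Of their 11 tested members, 7 were lower (63.6%, against 24.9% of all genes tested) and 1 was higher (9.09%, against 26.5%). The 7 were RAB18, RAB33B (-1.57), RAB2B (-1.54), RAB30 (-1.34), RAB1A (-1.24), RAB2A (-1.17), and RAB6A (-0.99), of which RAB30 and RAB6A did not pass with limma on log2(FPKM + 1) (RAB6A -0.58, limma adjusted p = 0.131). RAB43 was the only higher one, while RAB19 (0.07), RAB1B (0.30), and RAB6B (0.43) did not pass. RAB6B did pass with DESeq2 and with that limma fit (0.57, limma adjusted p = 0.0462).

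Among the 16 RABs of early and recycling endosomes, 8 were lower and 3 were higher, at a median of -0.29. RAB4A (-1.95), RAB31 (-1.59), RAB22A (-1.28), RAB5B (-0.95), RAB21 (-0.75), RAB11A (-0.70), and RAB14 (-0.59) were lower beside RAB5A, and RAB17, RAB15, and RAB35 were higher. Without the DU145 pair, RAB5B, RAB11A, RAB14, and RAB21 lost the call. RAB21 shows how the unit can matter: its FPKM rose from 24.7 to 40.8 in Hep3B while its fragments fell from 63.5 to 39.9 per 1000000.

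Of the 12 RABs of secretory vesicles and the plasma membrane, RAB27B, RAB8B, RAB13, and RAB27A (-1.58) were lower and none was higher. The lower ones made up 33.3%, against 24.9% of all genes tested, of which 26.5% were higher. RAB3D (0.67, edgeR adjusted p = 0.0863) and RAB37 (1.02, edgeR adjusted p = 0.143) lay above 0 without passing. Of the 7 RABs of late endosomes and lysosomes, only RAB9A (-1.94), which acts in return from late endosomes to the Golgi, was lower (14.3%) and none was higher. RAB7A, the main RAB of late endosomes, stood at -0.05 (edgeR adjusted p = 0.834). The other 10 tested members held RAB34, RAB40C, and RAB36 as higher and RAB23 (-2.01) and RAB28 (-2.0), both linked to cilia, as lower.

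Close copies within a subfamily often had different ratios. Over families in which at least 2 members had a mean of at least 1 FPKM, 14 pairs from 10 families were compared by the difference of their log2 ratios in each line. In 7 pairs the difference had the same sign in 4 of 4 lines. An exact sign-flip permutation test over 4 lines has 0.125 as its smallest two-sided p, which is 0.25 after Benjamini-Hochberg adjustment over the 14 pairs, so none of these differences could pass a threshold.

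The means of the differences were highest for RAB4B over RAB4A and RAB5C over RAB5A, 2.35 and 2.33, less far apart than their spread over lines. RAB4B exceeded RAB4A by 2.68, 2.49, 2.15, and 2.10 in Hep3B, HCT116, DU145, and SW1990 (SD 0.28, n = 4). RAB4A fell from 64.8, 61.9, 43.5, and 102 FPKM in the inputs to 18.4, 15.2, 12.8, and 29.6 FPKM in the RIP libraries. RAB4B, at 13.4, 19.3, 13.6, and 12.0 FPKM in the inputs, had 26.1, 28.3, 19.1, and 15.5 FPKM in the RIP libraries and did not pass the test (log2 fold change 0.40, edgeR adjusted p = 0.137), but passed with limma on log2(FPKM + 1), the unit of the differences above (0.56, limma adjusted p = 0.0317). The RAB4B span also holds the readthrough genes RAB4B-EGLN2 and MIA-RAB4B, whose fragments cannot be told apart from its own in their shared parts.

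In the RAB5 family the order RAB5A, RAB5B, RAB5C held in each of the 4 lines. For differences between close copies, ± gives the SD over the 4 lines and not an SE. RAB5C exceeded RAB5A by 2.22, 2.19, 2.14, and 2.77 in the order of the lines above (mean 2.33 ± 0.30). It exceeded RAB5B by a mean of 1.20 ± 0.42, and RAB5B exceeded RAB5A by 1.12 ± 0.69. RAB5C had 85.2, 96.4, 68.1, and 80.8 FPKM in the inputs and 139, 97.4, 68.4, and 106 FPKM in the RIP libraries (0.21, edgeR adjusted p = 0.414). RAB5A was already below RAB5C in each input, and the gap between them was wider in each RIP library.

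RAB8A exceeded RAB8B by 1.26 ± 0.35 and RAB1B exceeded RAB1A by 1.19 ± 0.61, each in 4 of 4 lines. For RAB1 the HCT116 difference was 0.29 while the other lines gave 1.36 to 1.58. RAB2A exceeded RAB2B by 0.44 ± 0.16 in 4 of 4 lines, and both were lower in RIP. RAB6B exceeded RAB6A in 3 of 4 lines, by 1.40 in HCT116, 2.13 in DU145, and 1.32 in SW1990, with -0.23 in Hep3B. By the log2(FPKM + 1) ratio, RAB11A and RAB11B (mean 0.23 ± 0.24) and RAB27A and RAB27B (0.16 ± 0.15) differed little on average. The same held for the 3 pairs of RAB3A, RAB3B, and RAB3D (0.10 to 0.29), and RAB40C exceeded RAB40B by 0.65 ± 0.72. None of these pairs had 1 sign in all lines. By edgeR's log2 fold change on counts they lay further apart, at -1.58 for RAB27A and -2.64 for the weakly expressed RAB27B. RAB11A was at -0.70 and RAB11B at 0.01, and RAB3D was at 0.67 against -0.22 for RAB3A and -0.10 for RAB3B. RAB6C and RAB1C are near copies of RAB6A and RAB1B, and how the authors' counting split shared fragments among them was not tested.

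**Figure D2:**
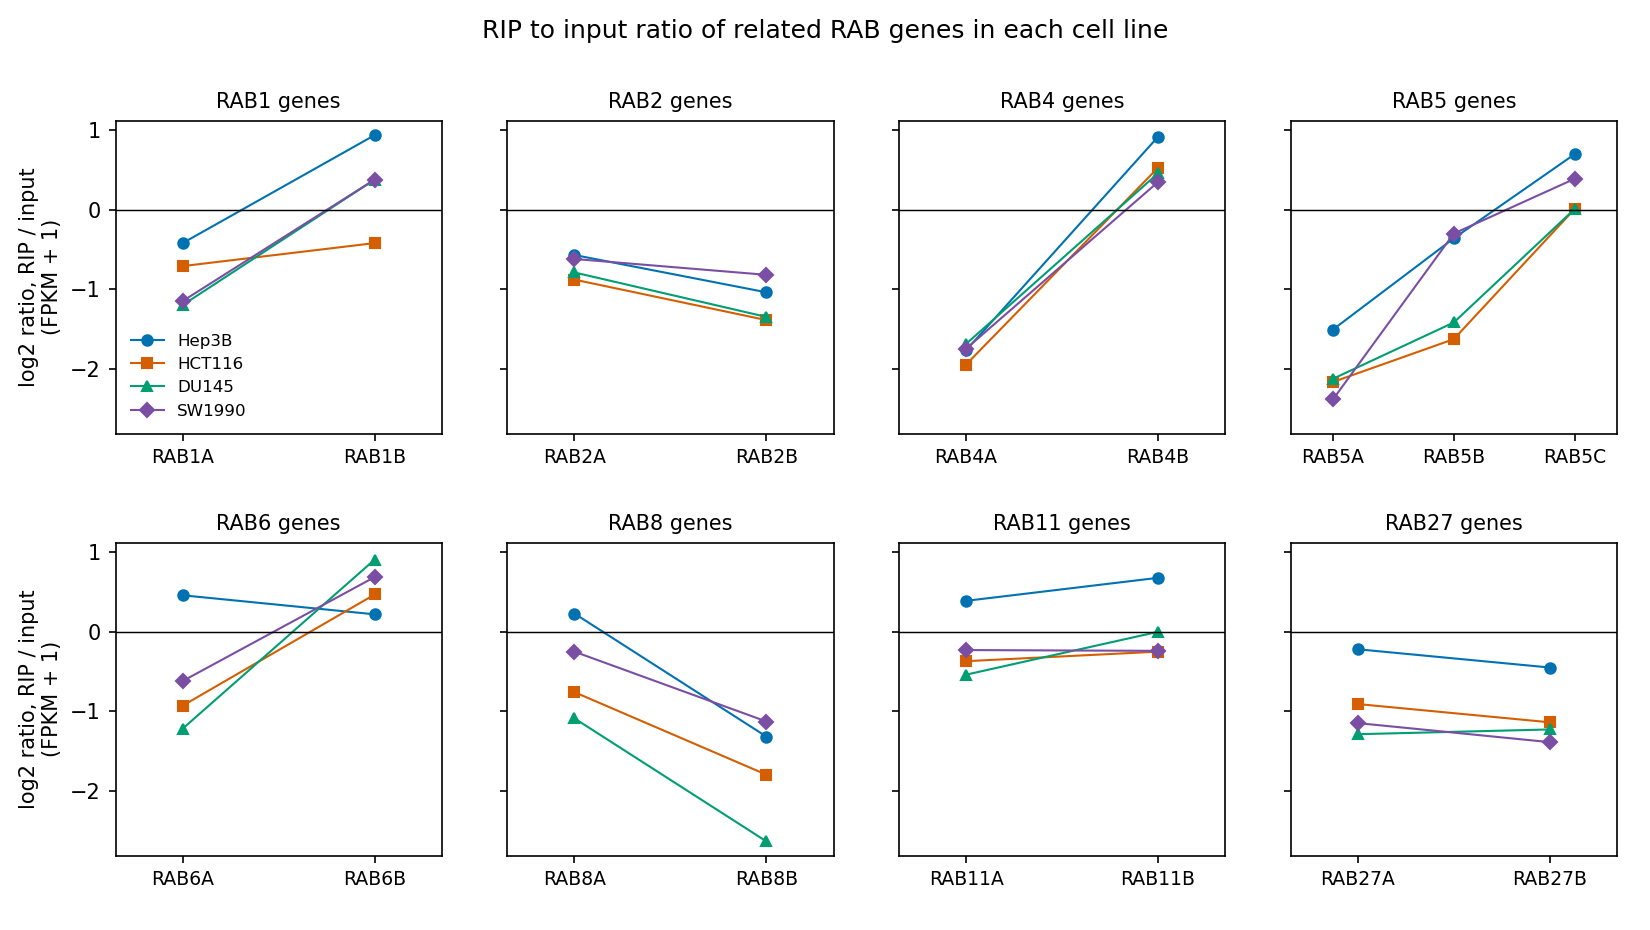
Ratio of RIP to input for 8 RAB subfamilies, on the vertical axis as log2 of (RIP FPKM + 1)/(input FPKM + 1), with 1 line and marker for each cell line joining the related genes. RAB4B lies above RAB4A by 2.10 to 2.68 in every line and RAB5C above RAB5A by 2.14 to 2.77, while RAB11A and RAB11B lie within 0.53 of each other.

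By level, RAB11A was the most abundant member in the inputs, at 202, 242, 139, and 201 FPKM in Hep3B, HCT116, DU145, and SW1990. RAB1A followed with 134, 118, 102, and 161 FPKM, then RAB1B (176, 98.5, 91.8, and 105), RAB7A (92.9, 122, 111, and 122), and RAB10 (45.1, 88.5, 115, and 88.8), which serves transport to the plasma membrane. These 4 overlapped over the lines. In the RIP libraries RAB1B stood at 338 FPKM in Hep3B against 73.4, 120, and 137 in the others. RAB7A had 147, 111, 109, and 126 FPKM in RIP and RAB10 had 70.1, 58.2, 73.2, and 93.0, and neither passed the test (RAB10 -0.38, edgeR adjusted p = 0.197). In all, 39 of the 61 members had at least 1 FPKM in all 4 inputs, and 9 were under 1 FPKM in all 8 libraries.

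Some RABs were restricted to certain lines, in input and RIP alike, and with 1 input a line these levels have no test. RAB25, an epithelial relative of RAB11, had 103 FPKM in the HCT116 input and 143 in SW1990, against 0.280 in Hep3B and 0.139 in DU145. RAB34 had the opposite pattern, with 143 FPKM in Hep3B and 111 in DU145 against 0.384 and 0.210. RAB32, which acts in the formation of lysosome-related organelles, followed RAB34, at 60.0 FPKM in Hep3B, 17.3 in DU145, 0 in HCT116, and 0.0935 in SW1990.

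RAB31, of transport between the trans-Golgi and endosomes, had 76.6 FPKM in the DU145 input, 32.8 in HCT116, 7.54 in Hep3B, and 0 in SW1990. RAB20, an endosome and phagosome RAB, had 21.0 in SW1990, 8.17 in HCT116, 0.941 in DU145, and 0.122 in Hep3B. Where they were expressed, the ratios did not follow the level. RAB25 went to 170 FPKM in the RIP of HCT116 and 158 in SW1990 (0.02, edgeR adjusted p = 0.970), and RAB32 to 59.8 in Hep3B and 21.2 in DU145 (-0.13, edgeR adjusted p = 0.793). RAB31 fell to 42.3, 11.8, and 4.42 FPKM in DU145, HCT116, and Hep3B (-1.59, edgeR adjusted p = 0.000464). Across the 56 members, the mean ratio had a Spearman's rho of -0.26 with the mean input level, a description over genes that share libraries.

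**Figure D3:**
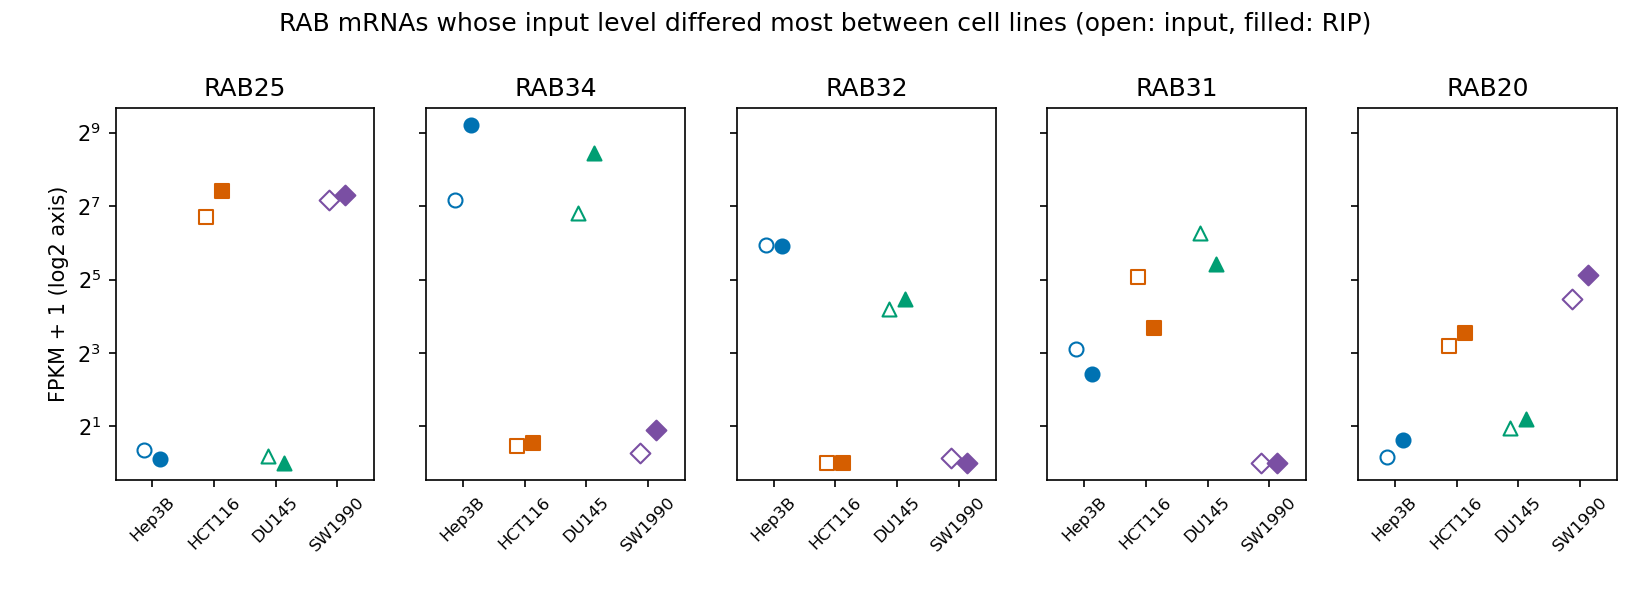
FPKM + 1 on a log2 axis in the 8 libraries for the 5 RAB mRNAs with the widest range over the inputs, with open markers for input and filled markers for RIP. RAB25 is high in HCT116 and SW1990 and near 0 in the other lines, and RAB34 shows the reverse.

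Among genes that act on RABs, most regulators that differed were higher in RIP. Of 34 exchange factors, 21 were higher in RIP (61.8%, against 26.5% of all genes tested) and 3 lower (8.82%, against 24.9%), at a median of 0.91. Of 39 GTPase-activating proteins, 21 were higher (53.8%) and 4 lower (10.3%), at a median of 1.08. The median over tested genes with a protein-coding symbol was 0.13. SBF1, an exchange factor with a DENN domain, had 10.4, 21.6, 27.1, and 28.0 FPKM in the inputs of Hep3B, HCT116, DU145, and SW1990 and 78.9, 155, 156, and 252 FPKM in the RIP libraries (log2 fold change 3.11 ± 0.24, edgeR adjusted p = 1.27e-05). EVI5L, with a TBC domain, had the highest value of its list, at 2.64. CCZ1, part of the exchange factor of RAB7, was at -1.10, and its near copy CCZ1B makes its counts uncertain. None of the 4 lower GTPase-activating proteins was lower in 4 of 4 lines by FPKM, and the lowest passing member with 1 direction in all lines was TBC1D1 at 0.87.

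Of 41 tested effectors, 17 were higher (41.5%, against 26.5% of all genes tested) and 10 lower (24.4%, against 24.9%), at a median of 0.50. The share of lower effectors thus lay near that of all genes. Effectors ran from RILPL2 at -1.51 to RAB11FIP5, a partner of RAB11, at 2.44. Among 8 prenylation and recycling factors, 2 were higher (25.0%, against 26.5%) and 3 lower (37.5%, against 24.9%), at a median of -0.59. RABGGTA, the alpha subunit of the enzyme that attaches lipids to RABs, rose from 8.52, 13.6, 5.63, and 16.8 FPKM to 29.9, 56.0, 31.0, and 61.1 FPKM (1.84 ± 0.19, edgeR adjusted p = 3.04e-05). Its beta subunit RABGGTB was lower (-1.17), as were the escort proteins CHM (-1.48) and CHML (-1.68). RABGGTB and CHM were named after their values were seen.

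Other small GTPase families included further lower lists. Of 24 tested ARF, ARL, and SAR genes, 13 were lower (54.2%, against 24.9% of all genes tested) and 1 higher (4.17%, against 26.5%), at a median of -1.04. Of 27 RAS genes, 12 were lower (44.4%) and 4 higher (14.8%), at a median of -0.43. RAP1B, a RAS relative that acts in adhesion, had 100, 83.6, 189, and 200 FPKM in the inputs and 24.7, 14.5, 29.9, and 39.5 FPKM in the RIP libraries (-2.79 ± 0.18). ARL14 had 171 fragments over the 4 inputs and 0 over the 4 RIP libraries, at least 50.4-fold lower against a floor of 3 fragments over the group. The highest genes that passed with 1 direction in all 4 lines were ARFRP1 (0.61) among ARF genes and RASD1 (1.48) among RAS genes.

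**Figure D4:**
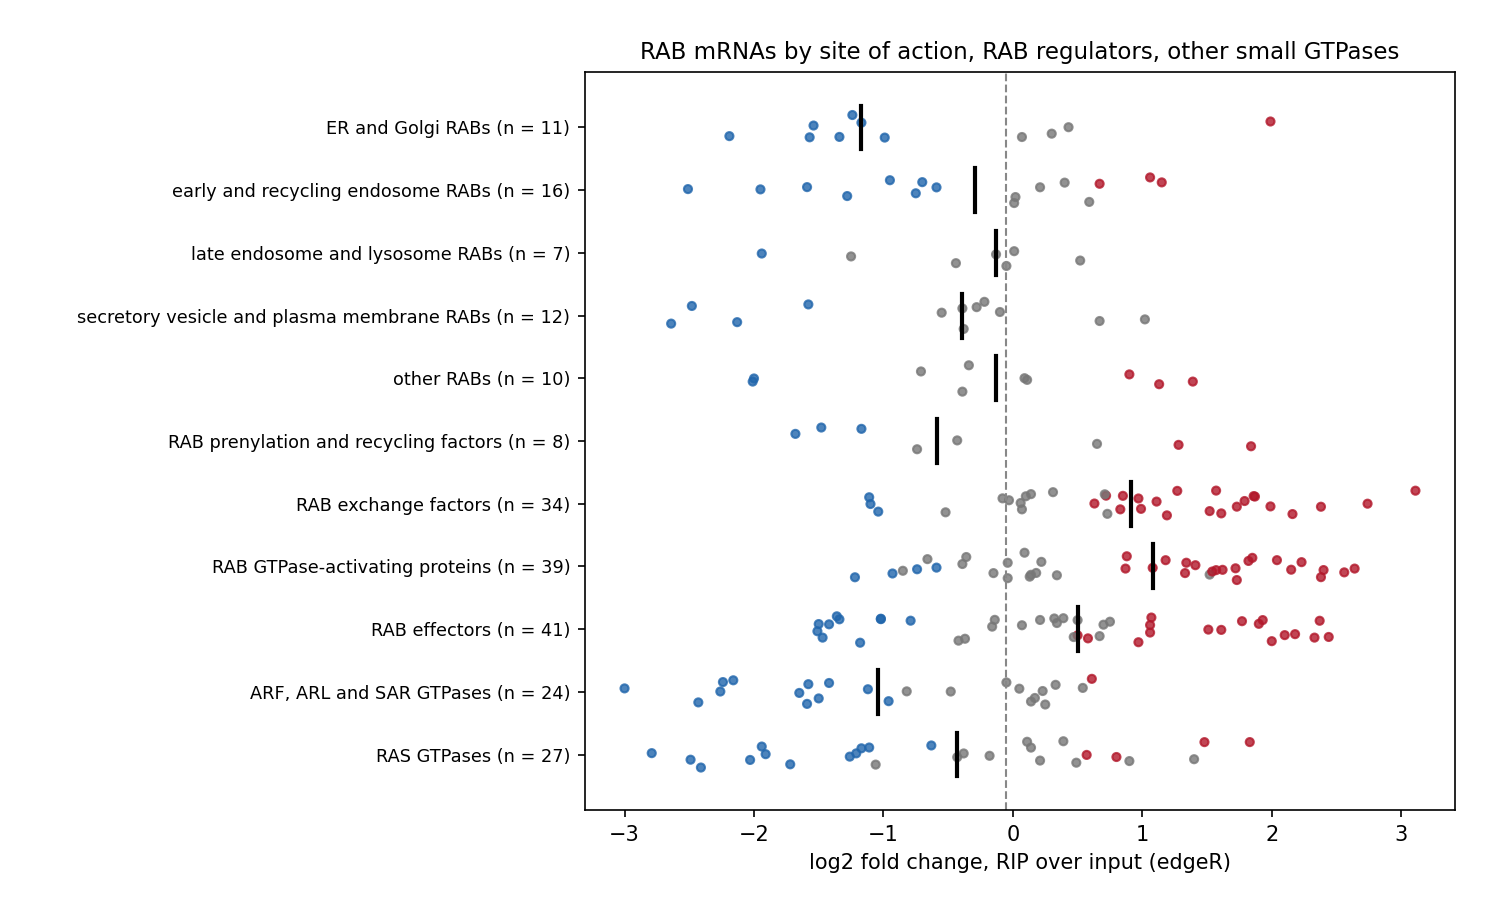
edgeR log2 fold change of RIP over input on the horizontal axis for each tested gene of 5 groups of RABs, 4 groups of RAB regulators and effectors, and 2 other small GTPase families, in blue where lower, red where higher, and grey where not past the threshold. Black bars are group medians, the dashed line is the median of all genes tested at -0.05, ARL14 is not drawn, and the medians run from -1.17 for ER and Golgi RABs to 1.08 for GTPase-activating proteins.

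The lists differ in transcript length. Relative to the median gene tested, the effective length implied by counts and FPKM had a median of 0.929 for the RABs, 1.71 for exchange factors, 1.88 for GTPase-activating proteins, 1.82 for effectors, and 0.904 for ARF, ARL, and SAR genes. Across the genes tested the mean ratio rose with this length (Spearman's rho 0.35 over 19919 genes), while among the 56 RABs rho was 0.05. The higher RABs had a median relative length of 1.55, the lower ones 0.976, and those that did not pass 0.805, and RAB3B, the longest at 7.09, stood at -0.10. The part of length in the difference between the lists was not tested. The span given for 41 of the 61 members is shared with at least 1 other listed gene, and whether the counting used the strand is not given in the sources used here, so that fragments of overlapping and antisense genes such as RAB11B-AS1 may be included.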

How the data were processed

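RNA from RPS6 RIP and matching input of 4 cell lines was analysed as 4 pairs. The authors aligned reads to hg19 with TopHat (TopHat2 2.0.9 in the submitters' processing notes), and the counting tool is not given in the sources used here. The authors deposited FPKM, normalized for length and depth, and estimated counts, scaled by 1 factor per library. The 4 tables of the authors' own comparisons hold fold changes, p-values, and q-values, which were not used. Counts had been planned as raw counts, and the estimated counts were rounded instead. edgeR 4.0.16 (R 4.3.3) was fitted to the rounded counts of all genes with TMM, the cell line as a block, and a mean of at least 10 counts. Within a line, ratios used log2(FPKM + 1). Fragments were recovered by dividing counts by the step common to most values of a library (0.673 to 1.27), after which 93.6% to 94.9% were whole within 0.01, and intervals and floors of fragments cover counting error only. Pairs share a cell line: deviations of RIP and input from their group means correlated with r of 0.80 to 0.87 within a line and at most -0.01 between lines. Deviations from a group mean sum to 0 over the 4 lines. Values between lines are thereby pulled below 0 and add no support of their own. On simulated counts (19814 genes) edgeR recovered 78 of 96 genes changed 2-fold and 93 of 93 changed 4-fold, with 5 false calls. The simulation changed few genes, gave all genes the same dispersion, and used the same fold in each line. Its rates need not hold for the deposited counts. Named members were the 5 highest and 5 lowest by fold change among those past the threshold with 1 direction in 4 lines, the 5 highest by input level, the 5 with the widest input range, and members of related families, and of other lists the highest and lowest that passed in 1 direction. Members, lists, and rules were chosen with earlier results of these data known. A check of promoter GC content is void, since 44 of the 56 tested members (78.6%) had a window. limma 3.58.1 and DESeq2 1.42.0 served as alternatives, and Python 3.11.15 for summaries. Some genes and sequences and a planned gene list are not reported here.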

Additional observations from a re-analysis of the deposited data

How the results depend on the processing

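Under DESeq2, other minimums on counts, upper-quartile scaling, limma with the filter on FPKM, and recovered fragments (the last chosen after the data were seen), counts of higher and lower RAB mRNAs stayed within 1.5 times 7 and 22. Without the replicate block, with cell lines left unpaired, 1 RAB mRNA was higher and 7 were lower, and over all genes 1427 were higher and 1344 lower in place of 5282 and 4960. With limma on log2(FPKM + 1) without a filter, 12 RAB mRNAs and 2324 of all genes were lower. The median log2 fold change of the RAB mRNAs was -0.11 with limma on log2(FPKM + 1), -0.13 with log2(FPKM + 0.1), and -0.07 without a filter. Leaving out each pair in turn gave medians from -0.62 (without Hep3B) to -0.26 (without DU145), and between 8 and 11 paralog pairs with 1 direction in all remaining lines (11 without SW1990, against 7 with all). With limma on log2(FPKM + 1), RAB6A, RAB11A, RAB14, RAB21, RAB30, and RAB36 lost the call and RAB4B and RAB6B gained one, as RAB8A (lower) did with other minimums on counts and upper-quartile scaling. Of the 20 named RABs past the threshold, none reversed in any alternative. Among those that did not pass, some changed sign. With DESeq2 RAB25 was at -0.99. Without a minimum on counts and with at least 50 counts, RAB11B was at -0.04 and -0.05 and RAB25 at -0.06 and -0.07. Upper-quartile scaling gave -0.12 for RAB11B, -0.11 for RAB25, and -0.03 for RAB40B. With limma RAB25 was at -0.36 (FPKM + 0.1), RAB32 at 0.04, RAB3A at 0.30 or 0.38, RAB3B at 0.11 or 0.15, and RAB7A at 0.14. Leaving out each pair in turn gave -0.26 (without Hep3B) to 0.09 for RAB11B, -0.02 (without Hep3B) to 0.56 for RAB1B, -0.38 (without HCT116) to 0.21 for RAB25, -0.47 to 0.02 (without SW1990) for RAB32, -0.36 to 0.11 (without HCT116) for RAB3B, -0.10 (without Hep3B) to 0.26 for RAB40B, -0.07 (without Hep3B) to 0.31 for RAB5C, and -0.22 to 0.03 (without SW1990) for RAB7A. The cause was not tested. With 1 library of each kind per line, changes within a line have no error, and RABs under 3 fragments have no level.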

Other observations

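The effective length implied by counts and FPKM was shorter in RIP than in input for several RABs. For RAB30, a Golgi RAB, the log2 quotient of RIP over input was -1.27, -1.51, -0.67, and -0.04 for Hep3B, HCT116, DU145, and SW1990. For RAB21, an endosomal RAB that binds integrins, it was -1.19, -0.70, -0.50, and -0.27, and for RAB3A, a RAB of synaptic vesicles, -1.69, -0.54, -0.12, and -0.11. The quotient was under -0.5 for 12 of 52 members in Hep3B (23.1%, against 26.5% of all tested genes with a value), 10 of 53 in HCT116 (18.9% against 8.3%), 5 of 54 in DU145 (9.26% against 10.2%), and 4 of 49 in SW1990 (8.16% against 9.47%), so that the shares of the members lay near or below those of all genes in 3 of the 4 lines. These genes were named after their values were seen, the quotients have no test, and whether shorter transcripts lie behind them was not tested.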
